A study of Mus musculus with 8 samples.

Results

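Glycolysis and the hypoxia response were followed in cultured mouse molar tooth germs through 32 genes, taken as every row of the table of counts whose gene name is one of 32 given names. These were 33 of 35896 rows, because the name Aldoa stands on 2 rows, and 32 of the 33 rows passed the filter on low counts. Car9 did not pass. Molar germs, from which the molar teeth form, came from BRE-GFP embryos, so every group carries the BRE-GFP reporter, which shows BMP-Smad signalling. They were cultured in vitro for 1 day. Germs of stage E12.5 (embryonic day) received SB431542, which blocks type I receptors for TGF-beta and activin, or SIS3, which blocks Smad3. Germs of E13.5 received DMSO, the solvent, as a stage control, and E12.5 germs with DMSO were the control of all 3 comparisons. Each of the 4 groups has 2 columns of estimated counts, which the labels name replicates 1 and 2. Neither the doses nor any pooling of germs could be read from the labels.

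Glycolysis splits glucose into pyruvate in the cytosol, and lactate dehydrogenase turns pyruvate into lactate when respiration does not use it. When oxygen is low, the prolyl hydroxylases of the Egln family no longer mark HIF alpha subunits for destruction. HIF with its partner Arnt then binds the short core of the hypoxia response element, ACGTG or GCGTG, near genes of glucose uptake, glycolysis, blood vessel growth and cell survival. Several of these genes have other regulators too: Ddit4 and Vegfa are also known targets of ATF4, the factor of the amino acid and unfolded protein stress responses in mammalian cells.

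In 3 groups (SB431542, E13.5 DMSO and E12.5 DMSO) the 2 columns differed by about the sampling noise over genes with 1 transcript (median ratio of the squared difference to the sampling variance 1.04 to 1.09, against 8.94 for SIS3). These pairs, though labelled as replicates, were added up, 1 library per group, so that 5 libraries were compared, with 5995709 to 30975010 counts. The members' columns differed by more than sampling noise in these groups too (mean ratio 2.6 to 4.47, against 30.7 for SIS3). By the same mean, genes with 1 transcript had 1.12 to 1.59 in these groups (SIS3, 20.1). Genes with more transcripts had means of 2.88 to 3.66 (SIS3, 23.6) and medians of 1.72 to 2.26 (SIS3, 12.1). The genes with 1 transcript were limited to protein-coding ones, without names of predicted, receptor, histone and Rik genes. Those with more transcripts had no such limit, so the 2 sets differ in more than the number of transcripts. The adding up thus rests on the 1225 to 1254 genes with 1 transcript chosen in this way. Slc2a3 had a log2 ratio of column 1 to column 2 of 0.68 in SB431542 and -0.64 in E13.5 DMSO. Pfkp had -0.59 in SB431542, 1.18 in SIS3 and -0.46 in E13.5 DMSO. The SIS3 germs were prepared with the TruSeq kit and all other germs with the SMARTer kit, so the effect of SIS3 and that of the kit cannot be told apart. All spread in the fit comes from the SIS3 pair, and the 3 lone libraries are assumed to vary like it. The 9 fixed markers of dental mesenchyme were found in all libraries (summed 2577 to 3596 CPM, that is counts scaled to the size of the library). The 10 endothelial markers summed to 504 CPM with SB431542, 49.3 and 40.8 CPM in the SIS3 libraries, 492 CPM in E13.5 DMSO and 445 CPM in E12.5 DMSO. The 9 macrophage markers summed to 42.2 CPM with SB431542, 12.4 and 10.2 CPM with SIS3, 95.8 CPM in E13.5 DMSO and 58.8 CPM in E12.5 DMSO. The 9 skeletal muscle markers summed to 777 CPM with SB431542, 253 and 207 CPM with SIS3, 791 CPM in E13.5 DMSO and 743 CPM in E12.5 DMSO. All 3 of these marker sums were lowest in the SIS3 libraries. The 9 erythroid markers ran from 414 CPM in E13.5 DMSO to 1377 CPM in the first SIS3 library, and the 7 dental epithelium markers from 36.5 CPM with SB431542 to 211 CPM in the second SIS3 library. Shh was at 0 in the first SIS3 and the E13.5 library. The 8 neural markers summed to 34.3 to 52.3 CPM. The part of cell composition in any result below was not tested, and in whole germs fewer cells of a type and less RNA per cell cannot be told apart.

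The promoter windows show where the HIF core lies in these genes. Windows of 300 bases, 250 before and 50 after the RefSeq start (GRCm38.p6), were matched for 30 of the 32 names, with 45 windows in all because some genes have several starts. Slc2a3 and Ndrg1 were not matched. Both motifs, ACGTG and GCGTG, were searched on both strands. In the palindrome CACGTG the first motif is found once on each strand. At least 1 motif was found in 35 of the 45 windows (77.8%), against 49.3% of the 21263 windows of protein-coding genes and 43.8% of all 32851 windows. Some windows of Eno1, Aldoa and Pfkm overlap, so the same matches are counted in more than 1 window. By name, 28 of the 30 matched genes had a motif in at least 1 window, for which no share over all genes was computed. Gpi1 and Tpi1 had none in theirs. A match describes the letters only and is not a binding site, and no binding was measured here. The 6 windows below, 5′ to 3′ in the direction of the gene and with the motifs in capitals, belong to 4 genes that were high and 2 that were low in both SIS3 libraries.
Ddit4, chr10:59951721-59952020, minus strand: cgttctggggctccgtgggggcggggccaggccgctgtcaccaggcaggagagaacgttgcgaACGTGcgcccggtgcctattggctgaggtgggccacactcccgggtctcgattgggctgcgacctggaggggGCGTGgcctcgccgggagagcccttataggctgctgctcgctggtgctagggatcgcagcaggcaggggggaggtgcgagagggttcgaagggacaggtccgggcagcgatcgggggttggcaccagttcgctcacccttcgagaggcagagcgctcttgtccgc
Hk2, chr6:82774405-82774704, minus strand: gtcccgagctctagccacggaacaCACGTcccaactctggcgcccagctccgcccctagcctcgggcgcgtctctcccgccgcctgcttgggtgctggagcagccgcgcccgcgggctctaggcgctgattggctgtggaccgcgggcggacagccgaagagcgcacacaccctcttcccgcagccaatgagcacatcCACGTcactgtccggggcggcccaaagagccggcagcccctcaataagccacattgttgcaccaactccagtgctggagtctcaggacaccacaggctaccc
Pdk1, chr2:71872974-71873273, plus strand: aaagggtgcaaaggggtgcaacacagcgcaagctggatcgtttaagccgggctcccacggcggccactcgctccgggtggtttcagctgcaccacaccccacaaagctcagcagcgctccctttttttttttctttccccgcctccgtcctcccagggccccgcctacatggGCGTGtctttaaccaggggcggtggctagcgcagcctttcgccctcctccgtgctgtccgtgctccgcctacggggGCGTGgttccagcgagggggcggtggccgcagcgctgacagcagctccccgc
Kdm3a, chr6:71632868-71633167, minus strand: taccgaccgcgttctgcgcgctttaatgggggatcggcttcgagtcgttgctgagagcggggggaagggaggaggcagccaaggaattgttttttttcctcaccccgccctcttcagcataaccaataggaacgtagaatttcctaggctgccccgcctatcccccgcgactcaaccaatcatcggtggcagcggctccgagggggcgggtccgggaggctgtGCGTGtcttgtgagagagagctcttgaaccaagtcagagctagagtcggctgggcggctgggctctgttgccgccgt
Ldha, chr7:46845554-46845853, plus strand: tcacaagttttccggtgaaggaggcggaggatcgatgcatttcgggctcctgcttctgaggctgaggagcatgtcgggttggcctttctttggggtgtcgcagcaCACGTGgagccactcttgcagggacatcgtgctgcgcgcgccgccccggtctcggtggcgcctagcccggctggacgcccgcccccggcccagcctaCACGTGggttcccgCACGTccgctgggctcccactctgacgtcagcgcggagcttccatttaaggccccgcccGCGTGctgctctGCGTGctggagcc
Eno1, chr4:150236947-150237246, plus strand: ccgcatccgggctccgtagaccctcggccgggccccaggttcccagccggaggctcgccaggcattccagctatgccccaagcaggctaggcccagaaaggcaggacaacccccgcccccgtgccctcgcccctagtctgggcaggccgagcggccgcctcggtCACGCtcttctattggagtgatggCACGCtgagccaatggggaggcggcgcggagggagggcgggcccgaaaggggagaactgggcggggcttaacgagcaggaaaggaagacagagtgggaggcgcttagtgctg

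Ddit4 holds a motif of each kind, at -187 and -115 from the start, and the Pdk1 window shown holds GCGTG at -78 and -2, while the second Pdk1 window has none. Hk2 reads CACGT, the reverse complement of ACGTG, at -226 and -52. The Kdm3a window shown has 1 motif, at -27, and the other 2 Kdm3a windows have none. The Ldha window has the most of these 6, with 7 matches that include the palindrome CACGTG at -145 and at -48. Eno1 reads CACGC, the reverse complement of GCGTG, at -86 and -62. All 6 windows shown hold the core, as does at least 1 window in 28 of the 30 matched genes. They therefore give no comparison between genes that were high and genes that were low in the SIS3 libraries. Of the 2 Vegfa windows, 1 has no motif and the other has 2.

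**Figure D1:**
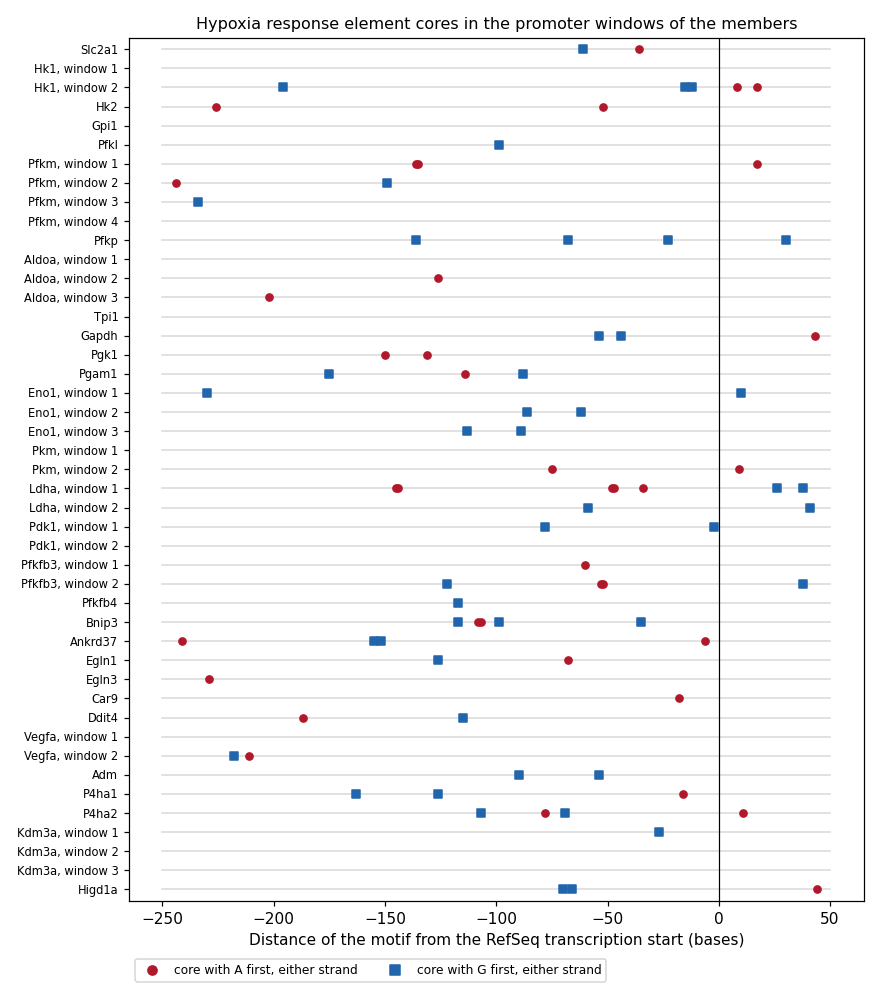
Position of each match to ACGTG (A first, red circles) and GCGTG (G first, blue squares), on either strand, in the 45 promoter windows of the members; the x axis is the distance in bases from the RefSeq start and each grey line is 1 window. At least 1 match lies in 35 windows, before and after the start.

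Levels of different genes are compared here only as TMM-normalised CPM per kilobase of the longest coding transcript. In E12.5 DMSO germs 2 enzymes of lower glycolysis were the most abundant. Gapdh, which oxidises glyceraldehyde 3-phosphate, had 193 and Pkm, pyruvate kinase, had 183.5 CPM per kb. Aldoa (84.2), Pgam1 (83.4) and Ldha (81.7 CPM per kb) followed, close together. Vegfa, the growth factor of blood vessels, stood at 36.75 CPM per kb, the highest of the members outside the glycolytic chain. At the other end Ankrd37, Adm and the second Aldoa row each had about 0.713 CPM per kb, and Car9, the hypoxia-induced carbonic anhydrase, had 0.0817. Car9 had 12 counts in SB431542, 0 in each SIS3 library, 0 in E13.5 DMSO and 5 in E12.5 DMSO. It is therefore at the limit of detection and gives no comparison.

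Isozymes of 1 step differed in level. Of the glucose transporters, Slc2a1 was above Slc2a3 in every library, at 13.3 against 2.76 CPM per kb with SB431542, 11.3 against 5.83 and 18.96 against 5.91 in the SIS3 libraries, 11.35 against 7.14 in E13.5 DMSO and 11.9 against 4.28 in E12.5 DMSO. Of the phosphofructokinases, which commit sugar to glycolysis, Pfkm led in every library (15.5 to 22.7 CPM per kb). Pfkl followed (7.425 to 12.55), and Pfkp was lowest (2.62 to 4.97) except in the first SIS3 library, where it had 7.72 against 7.425 for Pfkl. The hexokinases, which trap glucose in the cell, changed order between libraries. Hk2 stood above Hk1 in both SIS3 libraries, at 14.6 against 11.25 and 24.9 against 9.25 CPM per kb. It stood below Hk1 in the SB431542 (9.56 against 12.15), E13.5 DMSO (4.65 against 11.4) and E12.5 DMSO (8.01 against 14.3) libraries. Of the oxygen-sensing hydroxylases, Egln1 (7.66 to 18.1 CPM per kb) was above Egln3 (2.04 to 3.003) in all 5 libraries.

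**Figure D2:**
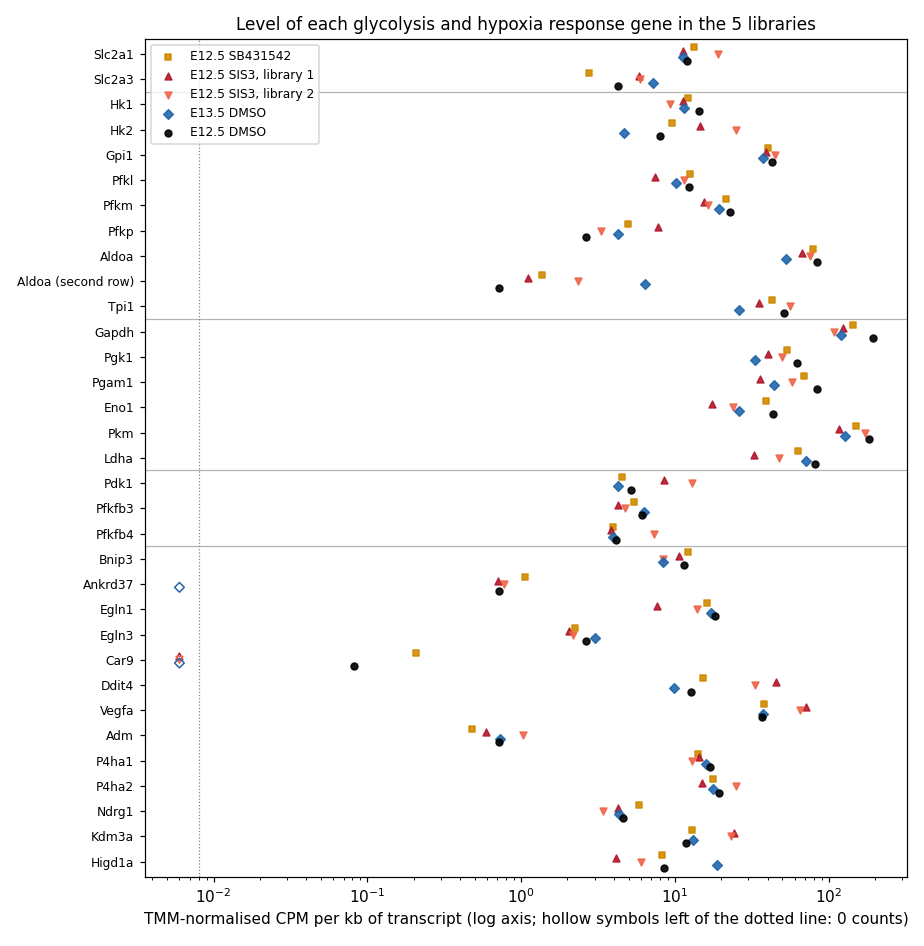
TMM-normalised CPM per kb of transcript (log axis) of the 33 rows, 1 symbol per library, with grey lines between transporters, upper glycolysis, lower glycolysis, metabolic switches and the other hypoxia response genes. Gapdh and Pkm are the most abundant, Hk2 is highest in the 2 SIS3 libraries, and hollow symbols mark libraries with 0 counts of Car9 or Ankrd37.

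SIS3, with its kit, was set against DMSO at E12.5. In 5 of 32 members (15.6%, against 19.5% of all genes) both SIS3 libraries stood above the 3 others: Ddit4, Hk2, Kdm3a, Pdk1 and Vegfa. In 9 members (28.1%, against 24% of all genes) both stood below. The 6 enzymes of lower glycolysis all had log2 fold changes below 0, as did 49.8% of all genes. By adjusted p, 1 of 32 tested members, Ddit4, rose (0.794% of all 19022 tested genes did) and 0 fell (3.03% of all genes, with 3.82% called in either direction). DESeq2 also called 1 member. At an unadjusted p below 0.05 there were 5 members higher (15.6%, against 5.82% of all genes) and 4 lower (11% of all genes), in all 9 of 32 (28.1%, against 16.8% of all genes). The median log2 fold change of the members was -0.25, against 0 over all genes.

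Ddit4 inhibits the growth kinase complex mTORC1 under stress. It lies on chromosome 10 (GRCm38, 59949669 to 59951834, minus strand). It had 80.0 and 58.0 CPM in the SIS3 libraries, 26.8 CPM with SB431542, 17.4 CPM in E13.5 DMSO and 22.2 CPM in E12.5 DMSO, so both SIS3 values lie above all others. Its log2 fold change with SIS3 was 1.63 (SE 0.39, 95% interval 0.79 to 2.47, edgeR adjusted p = 0.0335). Over 16 settings the adjusted p ran from 0.000431 to 0.108. The lowest values, 0.000431 and 0.0011, took all 8 columns as replicates, without and with the replicate number in the fit. Those settings count as replicates the pairs of columns that were added up for the main fit. The adjusted p was highest when only genes of at least 5 CPM were tested, and it was 0.1 with GC and length trends removed. It was 0.0503 and 0.0543 when the first or second E13.5 DMSO column was left out. The log2 fold change was 1.38 without the first SIS3 library and 1.85 without the second, both with no test.

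Hk2 had 80.6 and 137 CPM in the SIS3 libraries, 52.7 CPM with SB431542, 25.7 CPM in E13.5 DMSO and 44.2 CPM in E12.5 DMSO. Its SIS3 libraries lie above all others and are themselves far apart, and the log2 fold change of 1.31 (SE 0.38) did not pass the test (adjusted p = 0.0927). Pdk1 encodes a kinase that shuts pyruvate out of the mitochondrial dehydrogenase. It had 43.85 and 67.1 CPM in the SIS3 libraries, 23.4 CPM with SB431542, 22.02 CPM in E13.5 DMSO and 26.8 CPM in E12.5 DMSO. Its SIS3 difference was 1.05 on the log2 scale (SE 0.40, adjusted p = 0.188). Kdm3a, a histone H3 lysine demethylase, was close in both SIS3 libraries, at 118 and 112 CPM. It had 62.6 CPM with SB431542, 64.0 CPM in E13.5 DMSO and 57.25 CPM in E12.5 DMSO, and its log2 fold change was 1.00 (SE 0.32, adjusted p = 0.107). Vegfa was also even, at 246 and 224 CPM in the SIS3 libraries. The others held 131 CPM with SB431542, 129 CPM in E13.5 DMSO and 127 CPM in E12.5 DMSO, and the log2 fold change was 0.89 (SE 0.30, adjusted p = 0.138). In these 5 genes the SIS3 libraries do not overlap the other 3, and both are at least 1.5-fold above each of them. That rule, set with these values known, was met by 15.6% of the members and 4.43% of all tested genes. The receptors of Vegfa lie on endothelial cells, whose summed markers were 49.3 and 40.8 CPM in these libraries.

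Lower glycolysis had the opposite sign to these 5. All 6 members of this group had log2 fold changes below 0 (median -0.78), and none fell by adjusted p. Enolase, Eno1, had 35.1 and 48.6 CPM in the SIS3 libraries, 79.1 CPM with SB431542, 53.0 CPM in E13.5 DMSO and 88.2 CPM in E12.5 DMSO. Its log2 fold change was -1.07 (SE 0.32, adjusted p = 0.0915). Ldha, which makes lactate, had 59.0 and 85.6 CPM in the SIS3 libraries, 114 CPM with SB431542, 129 CPM in E13.5 DMSO and 148 CPM in E12.5 DMSO. Both SIS3 libraries lie below the other 3, and the log2 fold change was -1.03 (SE 0.31, adjusted p = 0.0939). Pgam1, phosphoglycerate mutase, had 63.6 and 102 CPM in the SIS3 libraries, 123 CPM with SB431542, 78.4 CPM in E13.5 DMSO and 148 CPM in E12.5 DMSO. The SIS3 libraries stand on both sides of the E13.5 value here, and the log2 fold change was -0.83 (SE 0.33, adjusted p = 0.219). Gapdh had 177 and 153 CPM in the SIS3 libraries, 205 CPM with SB431542, 171 CPM in E13.5 DMSO and 275 CPM in E12.5 DMSO. Its difference from E12.5 DMSO was -0.74 on the log2 scale (SE 0.28, adjusted p = 0.198). The E13.5 value lies between the SIS3 values. Pgk1 (-0.46) and Pkm (-0.35) had smaller differences.

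**Figure D3:**
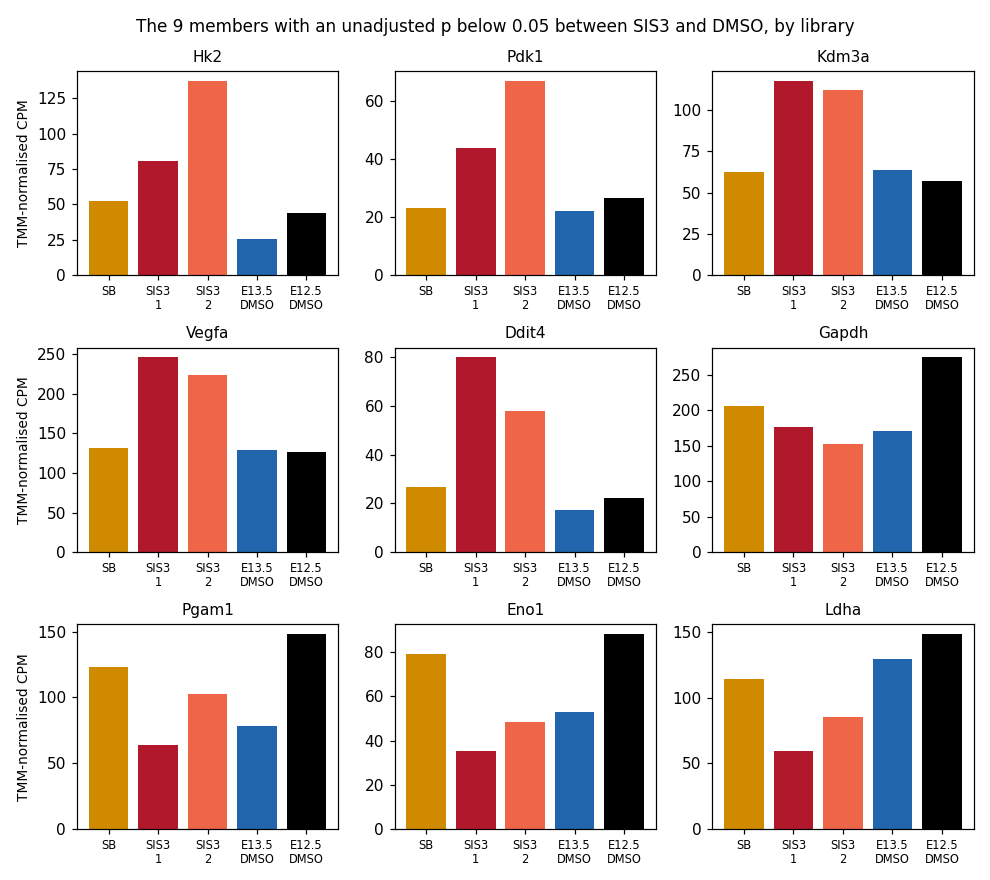
TMM-normalised CPM per library of the 9 members with an unadjusted p below 0.05 between SIS3 and E12.5 DMSO, 1 bar per library, y axes from 0 (SB, SB431542). In Hk2, Pdk1, Kdm3a, Vegfa and Ddit4 both SIS3 bars stand above the other 3; in Eno1 and Ldha both stand below, and in Pgam1 and Gapdh they overlap the E13.5 DMSO bar.

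The remaining members had unadjusted p-values above 0.05. Pfkp had 31.98 and 13.7 CPM in the SIS3 libraries, 20.6 CPM with SB431542, 17.7 CPM in E13.5 DMSO and 10.9 CPM in E12.5 DMSO. Its log2 fold change of 1.06 with SIS3 rests on the first SIS3 library, with a 95% interval from -0.16 to 2.29. Egln1, the main HIF hydroxylase, had 27.5 and 49.8 CPM in the SIS3 libraries, 57.7 CPM with SB431542, 61.6 CPM in E13.5 DMSO and 65.05 CPM in E12.5 DMSO (log2 fold change -0.74, SE 0.38). Higd1a, a mitochondrial protein induced by hypoxia, had the same log2 fold change, -0.74 (SE 0.43). Slc2a3 was at 0.46 (SE 0.43), with 23.1 and 23.4 CPM in the SIS3 libraries, against 16.95 CPM in E12.5 DMSO. Slc2a1 had 36.9 and 61.8 CPM in the SIS3 libraries, against 38.8 CPM in E12.5 DMSO. Its log2 fold change of 0.35 (SE 0.39) rests on the second SIS3 library and was -0.07 without it. Pfkfb4 had 13.35 and 25.5 CPM in the SIS3 libraries, against 14.4 CPM in E12.5 DMSO, and its 0.44 (SE 0.51) likewise became -0.11 without the second. Pfkfb3, which like Pfkfb4 makes the activator of phosphofructokinase, was at -0.45 (SE 0.39). In the 9 members with both SIS3 libraries below the 3 others, 0 were lower by at least 1.5-fold (11.7% of all genes were).

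SB431542 blocks the receptors above Smad2 and Smad3. By edgeR and by DESeq2 0 of 32 members passed the test, and 0 had an unadjusted p below 0.05. Of all 19022 genes 0% passed by edgeR and 1.24% had an unadjusted p below 0.05 (0.568% higher and 0.668% lower). The median log2 fold change was -0.11, with 21 of 32 members below 0 (65.6%, against 47.4% of all genes). The 6 enzymes of lower glycolysis lay in a narrow band from -0.42 to -0.16. The highest values were those of the second Aldoa row (0.93, SE 1.13), Pfkp (0.92, SE 0.61), Ankrd37 (0.57, SE 1.39) and Ndrg1 (0.35, SE 0.57). Pfkp, at 20.6 CPM with SB431542 against 10.9 CPM in DMSO, differed between its own 2 columns (235 and 353 counts). The lowest were Slc2a3 (-0.63, SE 0.49), Adm (-0.57, SE 1.27), Gapdh (-0.42, SE 0.34) and Ldha (-0.38, SE 0.37). Slc2a3, the high-affinity glucose transporter, had 10.9 CPM with SB431542 against 16.95 CPM in DMSO, and its SB431542 columns held 192 and 120 counts. Ddit4 (0.27), Hk2 (0.25), Kdm3a (0.13), Vegfa (0.05) and Pdk1 (-0.20), which were high in both SIS3 libraries, had 95% intervals across 0 here. The intervals reached a median of 0.92 to either side, so for a typical member a smaller change could not be told from 0.

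The stage comparison set E13.5 against E12.5 germs, both in DMSO. By edgeR and by DESeq2 0 of 32 members passed the test, against 5.23% of all genes by edgeR (4.06% higher and 1.17% lower). That background is unstable: 995 genes were called as reported, 419 and 399 without the first or second E13.5 column, 102 without predicted, pseudogene and receptor genes and 78 with GC and length trends removed. At an unadjusted p below 0.05 there were 6 members (18.8%, against 24.3% of all genes), 2 higher (15.4% of all genes) and 4 lower (8.88% of all genes). The median log2 fold change of the members was -0.19, and 23 of 32 lay below 0 (71.9%, against 50% of all genes). With GC and length trends removed the members' median was -0.06, with 18 below 0 and 14 above, and that of all genes was 0.03. Lower glycolysis had a median of -0.71, with all 6 members below 0. Pgam1 had 78.4 CPM at E13.5 against 148 CPM at E12.5 (log2 fold change -0.92, SE 0.39, adjusted p = 0.177). Pgk1, phosphoglycerate kinase, had 60.4 CPM at E13.5 against 113 CPM at E12.5 (-0.91, SE 0.36). Triose phosphate isomerase, Tpi1, had 41.65 CPM at E13.5 against 81.8 CPM at E12.5 (-0.97, SE 0.40). Ldha differed less, with 129 CPM at E13.5 and 148 CPM at E12.5.

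Ankrd37, a small ankyrin protein induced by HIF, had 0 counts at E13.5 against 20 at E12.5 and was not called (edgeR adjusted p = 0.161). With the floor of 3 counts in the E13.5 library it would be 3.69-fold lower. This bound takes the E12.5 count as exact and is not a firm minimum. The confidence interval of its log2 fold change ran from -12.52 to -0.7, which allows a smaller fall than the bound. The members' median is the same with Ankrd37 at that bound. Higd1a had the opposite sign, with 41.8 CPM at E13.5 against 19.0 CPM at E12.5 (log2 fold change 1.14, SE 0.51, adjusted p = 0.188). Slc2a3 (0.74, SE 0.49) and Pfkp (0.70, SE 0.61) were next. The second Aldoa row, a separate gene record on the same strand just upstream of Aldoa, had 79 counts at E13.5 against 16 at E12.5 (3.14, SE 1.17, adjusted p = 0.126). The main Aldoa row had 82.2 CPM at E13.5 against 130.4 CPM at E12.5 (-0.67, SE 0.34). The 5 genes that were high with SIS3 ran from -0.78 (Hk2) to 0.16 (Kdm3a) in this comparison.

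**Figure D4:**
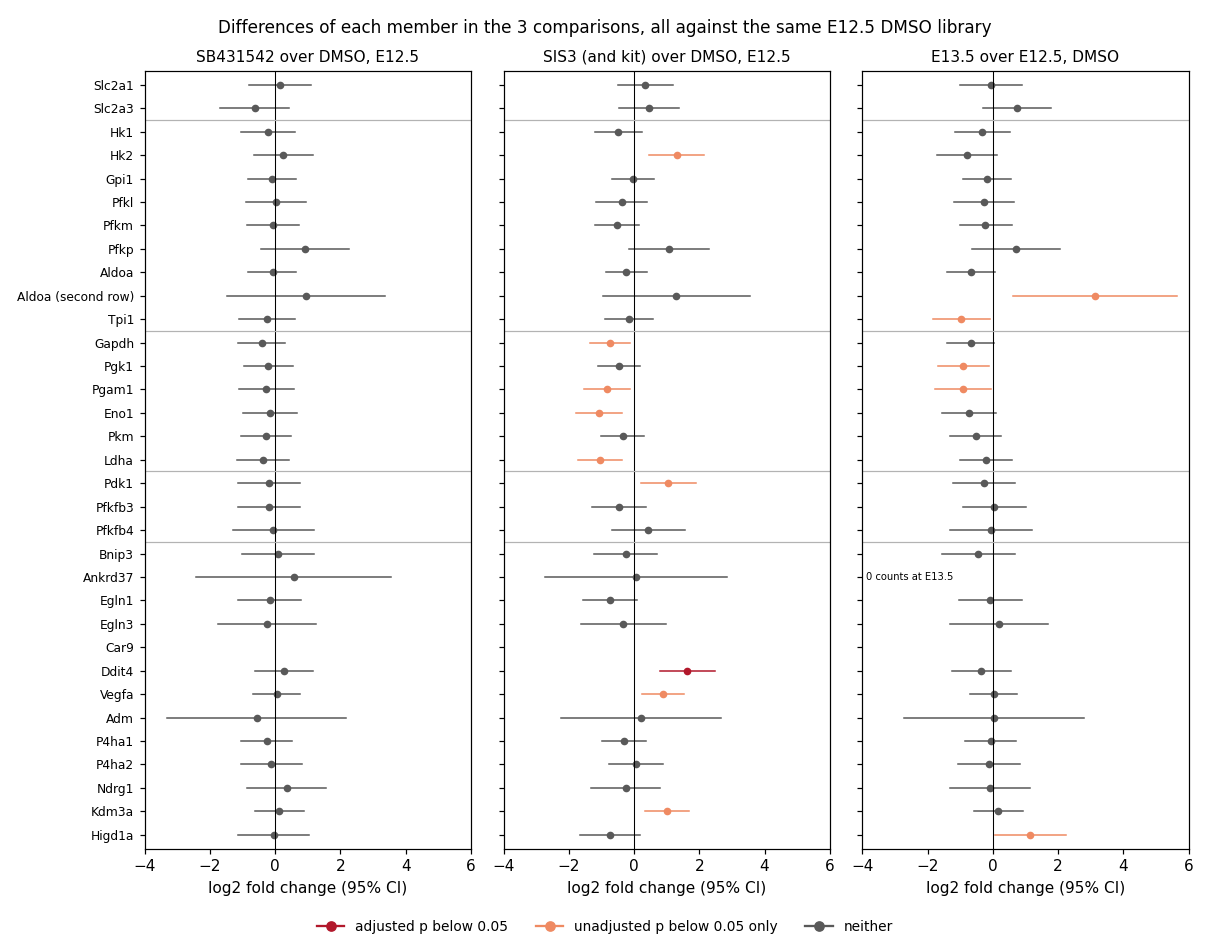
Log2 fold change and 95% confidence interval of each tested member in the 3 comparisons, each against the single E12.5 DMSO library; red marks an adjusted p below 0.05, orange an unadjusted p below 0.05 only. Ddit4 with SIS3 is the only red point, and the 6 lower glycolysis enzymes from Gapdh to Ldha lie left of 0 in all 3 panels.

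The 3 comparisons share the 1 E12.5 DMSO library, so the same sign in each is not independent. Gapdh had log2 fold changes of -0.42 with SB431542, -0.74 with SIS3 and -0.68 at E13.5. Eno1 had -0.16 with SB431542, -1.07 with SIS3 and -0.73 at E13.5, and Pgam1 had -0.27 with SB431542, -0.83 with SIS3 and -0.92 at E13.5.

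Glycolytic enzymes have many processed pseudogenes, and estimated counts can be divided between a gene and its copies. A copy here is another gene most of whose own 31-base words occur in the member, so it need not be near identical. Among the members, the share of 31-base words found in other genes was 54.7% for Pgk1, 37.1% for Pgam1, 34.7% for Pkm, 28.5% for Eno1, 27.2% for Gapdh and 19.6% for Ldha, against 0% for Ddit4 and Kdm3a. The 41 Gapdh copies in the table held 48.7% of the summed count with SB431542, 35.7% and 57.4% in the SIS3 libraries, 51.8% in E13.5 DMSO and 46.0% in E12.5 DMSO. Eno1b and Gm4735 held 43.1% of the summed Eno1 count with SB431542, 51.3% and 61.0% with SIS3, 67.9% in E13.5 DMSO and 53.3% in E12.5 DMSO. The division thus shifted between libraries for Gapdh and Eno1, and their single rows are uncertain, as is that of Pgam1 (below). The Pkm copy held at most 0.174% of the summed count, in E13.5 DMSO. The Pgk1 copies had no counts, and Ldha had no such copy. With copies added, an alternative chosen after seeing the data, Eno1 had a log2 fold change of -0.44 with SB431542, -0.94 with SIS3 and -0.19 at E13.5, so its stage difference was much smaller than in its own row (-0.73). Gapdh had -0.34 with SB431542, -0.68 with SIS3 and -0.52 at E13.5, close to its own row. Pgam1 had -0.64 at E13.5 against -0.92 in its own row, because its copy held 17.6% of the summed count in that library and 0% in the 4 others.

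**Figure D5:**
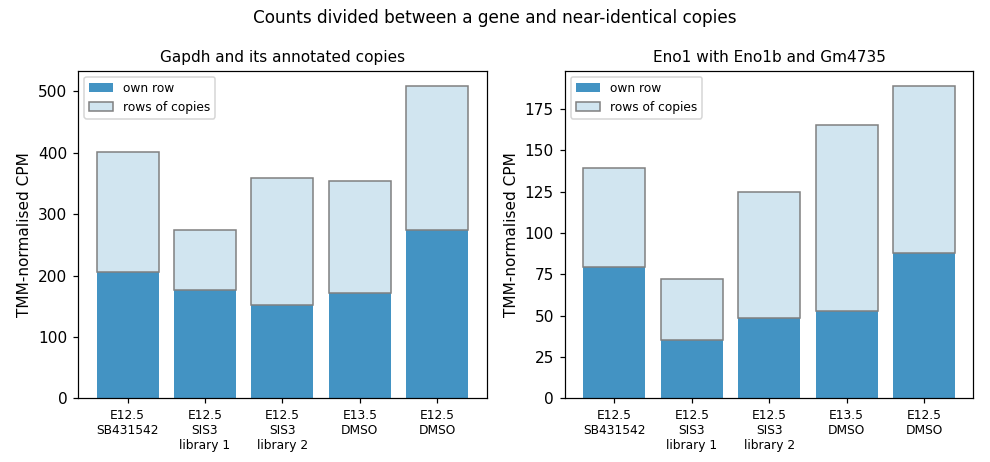
TMM-normalised CPM of Gapdh (left) and Eno1 (right) in the 5 libraries, divided into the gene's own row (dark) and the rows of its copies (light). E12.5 DMSO has the tallest bar in both panels, and the light part of Eno1 is largest in E13.5 DMSO, where copies held 67.9%.

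Other genes of these pathways were counted from 4 lists, chosen with earlier results of these data known. By adjusted p, 0.794% of all genes rose with SIS3 and its kit, and 3.03% fell. At an unadjusted p below 0.05 these shares were 5.82% and 11%. The list called other glycolysis also holds genes of neighbouring steps, such as Pck2, Gys1 and Pdhb. Of its 30 tested genes, 1 rose with SIS3 and 0 fell. The median log2 fold change was -0.39, with 4 higher and 2 lower at an unadjusted p below 0.05. The 1 that rose was Pck2, the mitochondrial enzyme that makes phosphoenolpyruvate, which is not a step of glycolysis itself. Pck2 had 151 and 124 CPM in the SIS3 libraries, 65.0 CPM with SB431542, 57.3 CPM in E13.5 DMSO and 53.1 CPM in E12.5 DMSO (1.37, SE 0.33, edgeR adjusted p = 0.0335). The call was lost without the first E12.5 DMSO or the second E13.5 DMSO column. It was also lost at a minimum of 5 CPM, with the 2 groups alone and with GC and length trends removed. The other main lactate dehydrogenase, Ldhb, was at -0.61 (SE 0.31) and the lactate exporter Slc16a3 at -0.57 (SE 0.86), neither called. Of the 8 pentose phosphate genes 0 were called by edgeR or DESeq2 (median -0.43, 2 lower at an unadjusted p below 0.05).

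Of the HIF factors, Epas1 was called and Hif1a and Arnt were not. Hif1a, the main oxygen-regulated subunit, had 448 and 311 CPM with SIS3, 311 CPM with SB431542, 246 CPM in E13.5 DMSO and 313 CPM in E12.5 DMSO (SIS3 log2 fold change 0.28, SE 0.31). Arnt (0.00) and Vhl, which degrades HIF (0.47, SE 0.36), were not called, nor were Ero1l (0.85, SE 0.37) and Bnip3l (-0.67, SE 0.29). Epas1, the second HIF alpha subunit, is rich in endothelium and fell to 2.97 and 2.54 CPM with SIS3, against 28.2 CPM in E12.5 DMSO (-3.36, SE 0.43, adjusted p = 0.000744). It had 31.2 CPM with SB431542 and 41.2 CPM in E13.5 DMSO. Among the 45 other hypoxia response genes 2 rose with SIS3 and 4 fell (median 0.08), against 0.794% and 3.03% of all genes. Those that rose were Wsb1, a ubiquitin ligase subunit (1.66, SE 0.31, adjusted p = 0.00788), and Stc2, a secreted glycoprotein (3.20, SE 0.70, adjusted p = 0.0217). With only genes of at least 5 CPM, or with GC and length trends removed, 0 of the list rose and 3 fell. Those that fell were Epas1, the endothelial receptor Flt1 (-5.34, SE 0.45), and the lysyl oxidases Lox (-2.10, SE 0.28, adjusted p = 0.00119) and Loxl2 (-1.27, SE 0.28, adjusted p = 0.0229). The fall of Epas1 and Flt1 stands beside that of the endothelial markers, of which Flt1 is one.

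Of 13 tested genes of the ATF4 stress response, 7 rose with SIS3 and its kit and 0 fell (median 2.07). Of all genes, 0.794% rose and 3.03% fell. At an unadjusted p below 0.05, 11 of the list were higher and 0 lower, against 5.82% and 11% of all genes. This list too was chosen with earlier results of these data known. Trib3, an inhibitory pseudokinase, had 80.45 and 83.0 CPM with SIS3, against 3.998 CPM in E12.5 DMSO (4.35, SE 0.45, adjusted p = 0.000118). Asns, asparagine synthetase, had 250.3 and 194 CPM with SIS3, against 52.7 CPM in E12.5 DMSO (2.07, SE 0.34, adjusted p = 0.00404). Sesn2 (2.89), Chac1 (2.66), Ddit3 (2.43), Atf3 (2.33) and Mthfd2 (1.73) were the other 5. Atf4 itself was at 1.16 (SE 0.30, adjusted p = 0.051). Whether the Ddit4 and Vegfa values follow these genes was not tested.

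With SB431542 no gene of the 4 lists was called by edgeR or DESeq2. At an unadjusted p below 0.05 there were 2 in the hypoxia list, 2 in the ATF4 list and 0 in the others, against 1.24% of all genes. At E13.5 the glucose transporter Slc2a2 rose (5.19 CPM, against 1 count, or 0.0330 CPM, at E12.5, adjusted p = 0.0358). This call was lost without the first E12.5 DMSO column and without either E13.5 column. DESeq2, a minimum of 5 CPM, removal of GC and length trends and removal of predicted, pseudogene and receptor genes each lost it too. Kdm4b, a histone demethylase, fell to 36.2 CPM at E13.5, against 136 CPM at E12.5 (-1.91, SE 0.36, adjusted p = 0.0095). Stc2 was at 0 counts at E13.5 against 61 at E12.5 (adjusted p = 0.0109). With the floor of 3 counts at E13.5 it would be 11.3-fold lower, a bound that covers counting error only. Chac1 of the ATF4 list fell to 1.85 CPM at E13.5, against 9.55 CPM at E12.5 (-2.36, SE 0.48, adjusted p = 0.0152), a call lost without the first E13.5 column. The Chac1 call was also lost at a minimum of 5 CPM, with GC and length trends removed, or without predicted, pseudogene and receptor genes. Without the second E13.5 column, or without those genes, the hypoxia list held 1 call instead of 2. It held 0 at that minimum or with those trends removed. The medians at E13.5 were -0.13 for other glycolysis, -0.12 for other hypoxia response, -0.46 for pentose phosphate and -0.19 for ATF4 genes, against 0 over all genes. Those medians are the same with the genes at 0 counts at E13.5 set to their bounds.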

How the data were processed

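RNA-seq of 8 deposited columns in 4 groups was used. Per the submitters' processing notes, the authors used Salmon, DESeq2, HISAT2, SAMtools and deepTools with mm10, without roles or versions. The table deposited by the authors holds estimated counts, rounded to whole numbers, for each gene. Per the labels, total RNA was made into libraries with 2 kits. Annotation and settings of the counting: not given in the sources used here. The members and lists were chosen with earlier results of these data known. The test was edgeR's (version 4.0.16, R 4.3.3) on 5 libraries and 19022 genes kept by filterByExpr: TMM factors, quasi-likelihood F test, robust, group as the only factor, Benjamini-Hochberg adjustment over all genes at 0.05. The fit has 1 residual degree of freedom plus 12.5 borrowed across genes. The common biological coefficient of variation was 29.3%. DESeq2 1.42.0 was an alternative. Totals were 28161788 counts for SB431542, 5995709 and 9427262 for SIS3, 17519118 for E13.5 DMSO and 30975010 for E12.5 DMSO. The floor of 3 counts is 0.0991 to 0.495 CPM and covers counting error only. No label says that the 2 SIS3 libraries come from separate cultures, so their spread may be technical. Of 35896 gene IDs, 35507 matched GENCODE M21 (GRCm38), which gave coordinates, lengths and shared sequence. The script was tested on simulated data. All members could be named. For each comparison, called members and the 4 highest and 4 lowest log2 fold changes were described. The genes with an unadjusted p below 0.05 were described as well.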

Additional observations from a re-analysis of the deposited data

How the results depend on the processing

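Ddit4, the 1 member called, kept its direction in every setting run. Uncalled values changed sign in up to 9 of 96 cases per setting. Not all of them were near 0 as reported: Ankrd37 had 0.57 with SB431542, and Pfkfb4 had 0.44 and Slc2a1 0.35 with SIS3. Without the second SIS3 library, Slc2a1 had -0.07, Pfkfb4 -0.11 and Adm -0.26 with SIS3, and without the first Tpi1 had 0.14. Without the second SB431542 column Ankrd37 had -0.24 with SB431542. With GC and length trends removed P4ha2 (0.03) and the ATF4 median (0.03) at E13.5 changed sign. Members called with SIS3 (1 as reported) numbered 4 with no filter on low counts and 0 with genes of at least 5 CPM, with the 2 groups alone, with GC and length trends removed, or without predicted, pseudogene and receptor genes. They numbered 0 to 1 when single columns were left out. Ddit4 was called in 10 of 16 settings with a p, and the cause of its losses was not tested. The 10 include all 8 columns as replicates, with and without the replicate block. Taking all 8 columns as replicates called 15 members with SIS3 and 11 for stage. With the replicate block the counts were 14 and 10. The differences between columns 1 and 2 had correlations of -0.023 to 0.001 between groups. In 3 groups these differences are about the sampling noise, so the correlations cannot show whether the numbers pair the samples. For the lists, 8 columns and the block called, with SB431542, 3 and 3 hypoxia and 1 and 1 ATF4 genes. With SIS3 they called 12 and 10 glycolysis, 22 and 21 hypoxia, 7 and 7 pentose phosphate and 12 and 12 ATF4 genes, and for stage 15 and 14, 18 and 17, 4 and 3, and 8 and 7. With SIS3, a minimum of 5 CPM called 0 glycolysis, 3 hypoxia and 3 ATF4 genes. Removing GC and length trends called 0, 3 and 4. In both settings the 3 hypoxia genes fell and 0 rose, so the calls of Wsb1 and Stc2 were lost. The 2 groups alone called 0 glycolysis genes, and no filter called 1 pentose phosphate gene. For stage, no filter called 2 glycolysis, 4 hypoxia, 1 pentose phosphate and 2 ATF4 genes. DESeq2 called 0 glycolysis genes. A minimum of 5 CPM, or GC and length trends removed, called 0 glycolysis, 0 hypoxia and 0 ATF4 genes. Without predicted genes the counts were 0, 1 and 0. Leaving out single columns gave 0 to 1 glycolysis genes with SIS3, and for stage 0 to 1 glycolysis, 1 to 2 hypoxia and 0 to 1 ATF4 genes. Over all genes, DESeq2 called 230 higher and 445 lower with SIS3, against 151 and 576 by edgeR. For stage it called 439 and 135, against 772 and 223. In all, SIS3 (727 by edgeR) had 1414 calls with no filter, 130 at 5 CPM, 232 with the 2 groups alone, 204 with GC and length trends removed, 394 without predicted genes, 6765 with 8 columns and 6194 with the block. Stage (995) had 2062 with no filter, 192 at 5 CPM, 9741 with 8 columns and 9260 with the block. A fit without 1 SIS3 library has no residual degrees of freedom and gave values with no test. Depth limits Car9, Ankrd37, Adm and the second Aldoa row.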
